A study of Mus musculus with 42 samples.

Results

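The Bpif genes are 9 members of a family of secreted proteins with the BPI fold, Bpifa1, Bpifb1, Bpifb2, Bpifb3, Bpifb4, Bpifb5, Bpifb6, Bpifb9a and Bpifb9b, taken by symbol from a table of 44674 genes. Bpifb5, Bpifb9a and Bpifb9b were selected on their measured values, because the ratio of their reads in a pulldown to their reads in the matched input was higher after food odour than without odour. Their changes are therefore given as a description, with no p-value. The other 6 were listed by family name and not by their values, so p-values are given for them, adjusted over all genes tested.

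The data are RNA-seq libraries from the main olfactory epithelium of male C57BL/6NCrl mice, which the methods give as 8 to 12 weeks old. All groups shared this strain and differed in the odour given for 1 h before dissection. The groups were 5 pools without odour, 6 pools with the odour of NCD, the normal chow, 5 pools with Bacon, a chow of matched nutrient content flavoured with bacon, and 5 pools with HFD, a high-fat diet based on lard. Each of the 21 pools held 4 epithelia and gave 2 libraries, an input of the whole lysate and a pulldown made with an antibody against phosphorylated ribosomal protein S6. S6 becomes phosphorylated in recently active cells, so the pulldown is enriched for the messages that such cells were translating. The antibody is not restricted to neurons, and the lysate of a whole epithelium holds glands, supporting cells and blood as well. In such bulk samples, fewer cells of a type and less RNA per cell cannot be told apart.

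Proteins of the BPI fold are elongated molecules with pockets for lipids, and the family is named after the bactericidal/permeability-increasing protein of neutrophils. The Bpif proteins, formerly called PLUNC proteins, are secreted into the mucus and saliva of the upper airway and mouth. They are known for binding lipids and bacterial products and for lowering the surface tension of airway fluid, and several are made in the glands and surface cells of the nose. Short members (Bpifa) hold 1 BPI domain and long members (Bpifb) hold a pair of them.

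The libraries held 24839555 to 36781553 counts. Markers of the mature olfactory sensory neuron, such as Omp and Cnga2, summed to at least 12916 CPM (counts scaled to a library total of 1000000) in every library, and 0 of the 9 listed were missing from the tests. Ribosomal RNA genes took 21.7 to 32.2% of the input counts without odour and 9.75 to 21.9% with an odour. In the pulldowns they took 14.6 to 28.5% without odour and 10.7 to 21.7% with an odour. CPM and the normalized fold changes therefore differ in places, and both are given. The no-odour pools 4 and 6 stood apart from the no-odour pools 1, 2 and 3. In their inputs the summed level of 17 listed genes of nasal and Bowman glands was 2836 and 3365 CPM against 5089 to 5745 CPM. Bpifa6, a neighbour of the Bpif genes described here, was at 43.7 and 44.9 CPM there and at no more than 0.509 CPM in the other 19 inputs. The Bacon pulldown 1 also stood apart, with 5516 CPM of sustentacular (supporting cell) markers against 2010 to 3950 CPM in the other 20 pulldowns. Several of the results that rest on these pools are given with and without them.

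All 9 genes lie on the plus strand of chromosome 2 in build GRCm38 (GENCODE M21 annotation), within 446 kb, and overlap no other annotated gene. From first to last the genes are Bpifb2 (153875045 to 153895270), Bpifb6 (153900388 to 153912795), Bpifb3 (153918230 to 153932996), Bpifb4 (153938212 to 153964101), Bpifa1 (154142880 to 154149219), Bpifb1 (154190818 to 154220369), Bpifb5 (154223742 to 154240902), Bpifb9a (154257854 to 154271245) and Bpifb9b (154307227 to 154320646). Bpifa6, Bpifa2, Bpifa3 and Bpifa5 lie between Bpifb4 and Bpifb1. The 3 genes selected on their values are the last 3 of the row.

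Bpifb9a and Bpifb9b are near copies of each other. Their coding sequences are both 1776 bases long and 1763 of these were identical (99.3%), whereas any other pair of the 9 genes was identical at 61.8 to 73.7% of the aligned coding bases. The first 120 coding bases are shown because the counts of the pair depend on such differences, and capitals mark the 2 bases that differ.
Bpifb9a: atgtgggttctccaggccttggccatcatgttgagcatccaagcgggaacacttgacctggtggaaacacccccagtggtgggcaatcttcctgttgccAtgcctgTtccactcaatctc
Bpifb9b: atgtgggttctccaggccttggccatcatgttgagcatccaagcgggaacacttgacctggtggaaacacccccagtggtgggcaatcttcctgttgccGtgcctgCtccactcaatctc

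Of all stretches of 31 bases in the transcripts of Bpifb9a, 72.2% also occurred in Bpifb9b, and 80.5% of those of Bpifb9b occurred in Bpifb9a. Salmon divided reads from such stretches between the genes by estimation, so the separate values of the pair are uncertain and their sum is given as well. The other members shared none of these stretches with another gene, except Bpifb1 with 0.277%.

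Promoters are shown for the 3 genes with a higher pulldown share after odour and for Bpifb3, which went the other way. Each window runs from 250 bases before to 50 bases after a RefSeq transcription start (GRCm38.p6, plus strand), and capitals mark the letters TATAAA of the TATA box. The windows are chr2:154257629-154257928 for Bpifb9a, chr2:154306994-154307293 for Bpifb9b, chr2:154223492-154223791 for Bpifb5 and chr2:153917948-153918247 for the first of 2 listed starts of Bpifb3.
Bpifb9a: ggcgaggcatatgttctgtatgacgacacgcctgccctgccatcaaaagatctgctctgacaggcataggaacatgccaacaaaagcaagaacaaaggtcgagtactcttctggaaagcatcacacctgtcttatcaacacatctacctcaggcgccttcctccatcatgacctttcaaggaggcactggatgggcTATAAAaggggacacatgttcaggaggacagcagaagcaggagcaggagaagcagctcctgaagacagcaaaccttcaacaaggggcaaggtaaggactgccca
Bpifb9b: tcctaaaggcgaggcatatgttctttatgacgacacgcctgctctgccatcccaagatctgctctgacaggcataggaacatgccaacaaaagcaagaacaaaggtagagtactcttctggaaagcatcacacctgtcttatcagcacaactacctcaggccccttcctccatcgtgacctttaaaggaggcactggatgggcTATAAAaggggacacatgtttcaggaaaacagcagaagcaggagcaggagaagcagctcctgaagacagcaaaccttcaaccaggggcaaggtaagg
Bpifb5: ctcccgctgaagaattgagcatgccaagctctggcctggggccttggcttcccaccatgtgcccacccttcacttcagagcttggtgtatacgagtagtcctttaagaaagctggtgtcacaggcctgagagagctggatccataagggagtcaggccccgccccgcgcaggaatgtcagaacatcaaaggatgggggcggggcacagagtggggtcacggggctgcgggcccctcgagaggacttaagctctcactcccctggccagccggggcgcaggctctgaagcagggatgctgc
Bpifb3: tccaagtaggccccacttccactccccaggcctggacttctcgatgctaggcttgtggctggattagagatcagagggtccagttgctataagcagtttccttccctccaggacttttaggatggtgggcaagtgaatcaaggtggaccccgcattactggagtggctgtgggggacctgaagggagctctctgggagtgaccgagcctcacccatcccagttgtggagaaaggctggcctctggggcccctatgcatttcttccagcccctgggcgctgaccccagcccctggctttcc

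The windows of Bpifb9a and Bpifb9b were identical at 279 of 292 aligned bases (95.5%). TATAAA occurred in them at -54 and -47 from the RefSeq start, and in the window of Bpifa1 at -29, and in no window of the other 6 genes. The GENCODE starts of the pair, given above, lie before these RefSeq starts and thus nearer to TATAAA. Over 32851 promoter windows of the same length, 13.6% held TATAAA on either strand. TGACG, part of the cAMP response element, was found in both windows of the pair, in 1 of 2 windows of Bpifb1 and in 1 of 2 windows of Bpifb3, against 20.8% of all windows. TGANTCA, a pattern looser than the AP-1 element (TGACTCA or TGAGTCA), was found in the window of Bpifa1 and in the printed window of Bpifb3. It read TGACTCA in Bpifa1 and TGAATCA, which is not the AP-1 element, in Bpifb3. The looser pattern was found in 7.81% of all windows. The 3 motifs were searched on both strands, and none contains another. The window of Bpifb5 held none of the 3 motifs, so no searched motif was common to the 3 genes with a higher pulldown share.

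Some of the Bpif messages were among the most abundant of the olfactory epithelium. By mean input CPM without odour, Bpifb9b ranked 3, Bpifb9a 9, Bpifa1 17 and Bpifb3 29 among 21420 protein-coding genes. Bpifb4 ranked 201, Bpifb6 305, Bpifb5 622, Bpifb1 6268 and Bpifb2 17404. These ranks do not correct for gene length. Levels of different genes are compared as CPM per kb of exon, and on that scale the inputs without odour gave 3888 ± 1353 (SD, n = 5) for Bpifb9b, 1471 ± 567 for Bpifb9a and 1339 ± 326 for Bpifa1, known as SPLUNC1, an antimicrobial and surface-active protein of airway fluid. Bpifb3, a gene of the olfactory mucosa, followed at 786 ± 23.6 and Bpifb6 at 150 ± 3.12 CPM per kb. Bpifb4 at 106 ± 14.3 and Bpifb5 at 105 ± 33.1 were next, and Bpifb1, the long counterpart of SPLUNC1, was at 5.94 ± 0.943 CPM per kb. The values of Bpifb9a overlapped with those of Bpifa1, and the values of Bpifb4 overlapped with those of Bpifb5. Bpifb2, known from saliva, had at most 7 counts in a library, or 0.246 CPM, and 0 counts in 14 of 42 libraries. A count of 0 allows up to 3 counts, which is 0.0817 to 0.118 CPM in those libraries, and this limit covers counting error only. Bpifb2 fell under the filter on low counts, so 8 of the 9 members were tested.

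**Figure D1:**
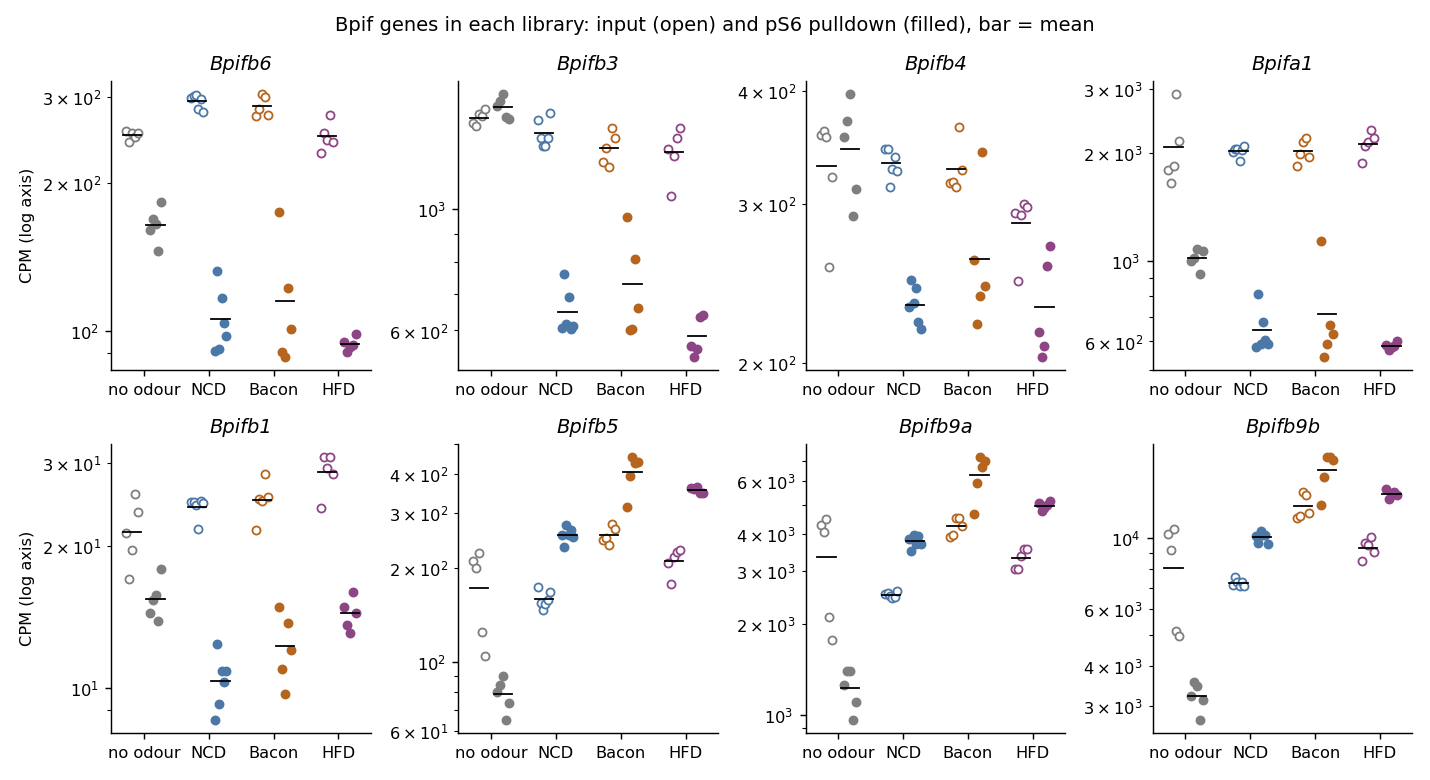
Level of each of the 8 tested Bpif genes in every library, as CPM on a log axis, with open circles for inputs, filled circles for pulldowns, colours for the 4 odour groups and black bars for group means. The filled circles of Bpifb5, Bpifb9a and Bpifb9b sit above all no-odour pulldowns in every odour group, whereas those of Bpifb3 sit below them.

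The first comparison asked which Bpif messages had a higher or lower share in the pulldown than in the input when no odour was given. Most were depleted from the pulldown, with log2 fold changes of pulldown over input of -1.06 ± 0.14 (SE) for Bpifa1 (adjusted p = 1.01e-06), -0.68 ± 0.10 for Bpifb6 (adjusted p = 1.38e-06) and -0.54 ± 0.10 for Bpifb1 (adjusted p = 7.47e-05). Bpifb9a at -1.44 ± 0.10, Bpifb9b at -1.32 ± 0.09 and Bpifb5 at -1.15 ± 0.09 had the most negative values. Bpifb3 at -0.01 ± 0.08 (adjusted p = 0.925) and Bpifb4 at -0.01 ± 0.06 (adjusted p = 0.939) were at the same share in pulldown and input within their error. A gene is called where edgeR's quasi-likelihood test gave an adjusted p below 0.001. By this rule 3 of the 5 tested members not selected on their values were called lower, against 16% of 21168 genes called lower and 19.8% called higher. The 3 selected genes were called lower too, but nothing is read from this, since their selection used these no-odour pools and favours a low ratio there. The median over all 8, the 3 selected genes included, was -0.87 and the median of all genes 0.01. The selection lowers this median of 8, so nothing is read from it. The call of Bpifb1 was lost without the no-odour pools 4 and 6 (-0.38, adjusted p = 0.00895) and when only the no-odour libraries were fitted (-0.57, adjusted p = 0.00183). Of listed cell markers, 5 of 5 erythroid, 4 of 5 neutrophil, 5 of 9 olfactory sensory neuron, 2 of 6 motile ciliated and 1 of 15 gland genes were called higher. Called lower were 6 of 6 sustentacular, 3 of 3 horizontal basal, 4 of 6 respiratory secretory and 6 of 15 gland genes.

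With each food odour the change of pulldown relative to input was positive for 3 of the tested Bpif genes and negative for the other 5, of which Bpifb3 was called lower. Bpifb5, Bpifb9a and Bpifb9b, the 3 selected on these values, were 3.6- to 4.44-fold higher in fitted pulldown/input ratio than without odour. Bpifb3 fell in pulldown/input ratio by 1.01 on the log2 scale with NCD, 0.69 with Bacon and 1.06 with HFD. Of the 8 members tested, 3 were called higher and 1 lower in each odour. The background of called genes was 0.359% higher and 0.165% lower with NCD, 2.47% and 1.32% with Bacon, and 0.699% and 0.52% with HFD, and since values of the 3 called higher chose them, nothing is read from their count. Of the 5 members not selected on values, DESeq2 called 3, 1 and 2 lower with NCD, Bacon and HFD. Over all genes DESeq2 called 560, 1824 and 868 in either direction, where edgeR called 111, 801 and 258. The shares of called genes are those of edgeR and do not apply to DESeq2 counts, here or below. The member medians of the change were -0.48, -0.26 and -0.33 with NCD, Bacon and HFD, and the medians of all genes were -0.00, 0.00 and -0.01. The 3 selected genes enter the member medians, so nothing is read from these. These 3 comparisons share the no-odour pools, so they are not independent of each other.

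Bpifb9b, the most abundant of the family, was at 3209, 3562, 3456, 2714 and 3130 CPM in the no-odour pulldowns. In the pulldowns with NCD it ranged from 9562 to 10477 CPM (median 10182). With Bacon it was at 12620, 15530, 17861, 17886 and 17553 CPM, and with HFD at 14233, 13243, 13592, 13870 and 13629 CPM. Every odour pulldown was above every no-odour pulldown, and the Bacon and HFD pulldowns were all above those of NCD. The log2 ratio of pulldown to input CPM, with 0.5 CPM added to both, was -1.68, -1.36, -1.63, -0.91 and -0.66 in the no-odour pools. It was 0.36 to 0.53 with NCD, 0.13 to 0.55 with Bacon and 0.46 to 0.74 with HFD. The message was under-represented in the no-odour pulldowns and over-represented in the odour pulldowns, and no odour pool overlapped with a no-odour pool. Bpifb9b was selected on these ratios, as were Bpifb9a and Bpifb5, so the separation of their pools is a description. The share of all genes whose pools separate in this way was not counted, here or for the members below. The fitted change was 1.87 ± 0.12 with NCD, 1.85 ± 0.13 with Bacon and 1.93 ± 0.13 with HFD (log2, SE).

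Bpifb9a, its near copy, was at 1256, 1392, 1400, 961 and 1098 CPM in the no-odour pulldowns. With NCD it ranged from 3512 to 3956 CPM (median 3777), with Bacon it was at 4667, 5890, 7217, 6691 and 6982 CPM, and with HFD at 5058, 4762, 4870, 4974 and 5164 CPM. Without odour the mean log2 ratio was -1.36 ± 0.45 (SD, n = 5), and it was 0.59 ± 0.08 (n = 6) with NCD, 0.56 ± 0.18 (n = 5) with Bacon and 0.58 ± 0.10 (n = 5) with HFD. The ratios of the 3 odours lay within their spread of each other and far above those of the no-odour pools. Fitted changes were 2.10 ± 0.13, 2.15 ± 0.14 and 2.07 ± 0.14 with NCD, Bacon and HFD.

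Taken as 1 gene, the pair summed to 4435 ± 517 CPM in the no-odour pulldowns (n = 5), 13828 ± 504 with NCD (n = 6), 22579 ± 3294 with Bacon (n = 5) and 18679 ± 478 with HFD (n = 5). The log2 ratio of the sum was -1.28 ± 0.45, 0.50 ± 0.07, 0.42 ± 0.16 and 0.56 ± 0.11 in the same order. Bpifb9b took 70.9 to 74.7% of the counts of the pair as a group mean, in pulldowns and inputs alike, so the division of shared reads between the copies moved little across groups.

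Bpifb5, the gene next to the pair and distinct from it in sequence (64.3% of the aligned coding bases identical to Bpifb9a), was much less abundant. It was at 80.2, 84.1, 90.1, 65.2 and 74.0 CPM in the no-odour pulldowns. With NCD it was at 234 to 275 CPM (median 256), with Bacon at 315, 395, 455, 436 and 440 CPM, and with HFD at 362, 359.5, 365, 349.6 and 349 CPM. Its rank among protein-coding genes in the pulldown went from 2160 without odour to 476, 210 and 261 with NCD, Bacon and HFD. The log2 ratio was -1.07 ± 0.37 without odour and 0.69 ± 0.13, 0.67 ± 0.21 and 0.76 ± 0.16 with the 3 odours, with no overlap. Fitted changes were 1.91 ± 0.13, 1.97 ± 0.13 and 1.96 ± 0.13.

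**Figure D2:**
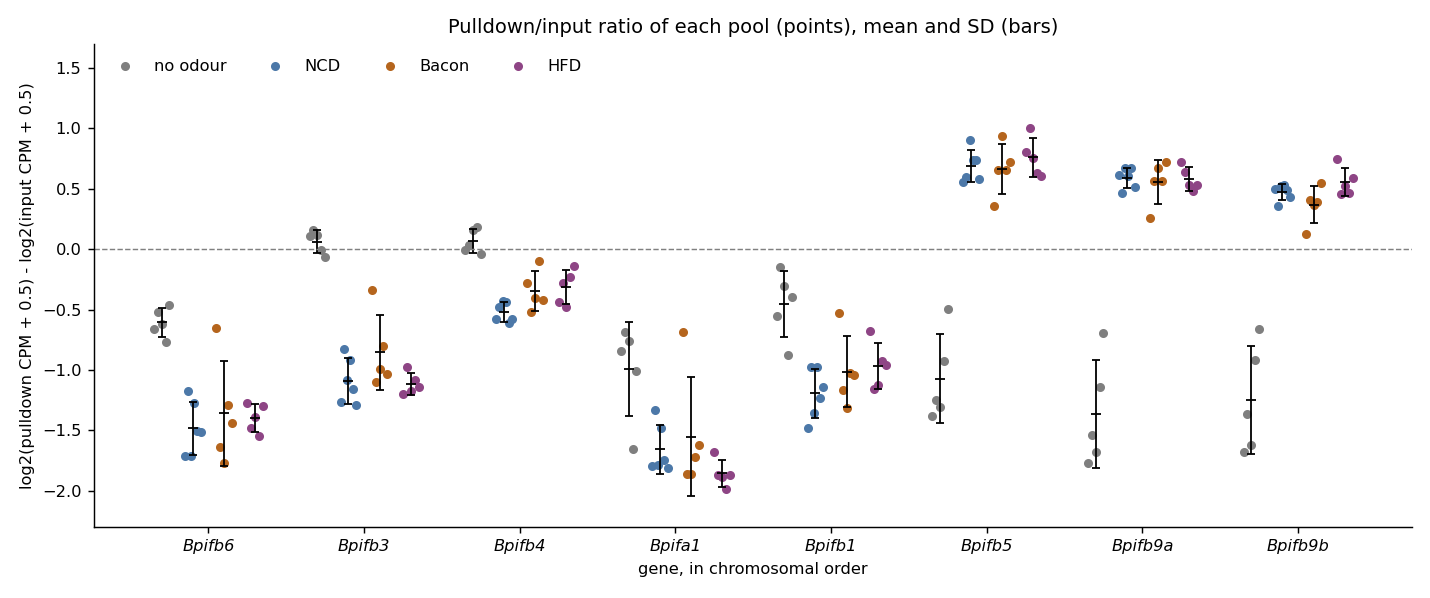
Log2 ratio of pulldown to input CPM (0.5 CPM added to both) of each of the 21 pools for the 8 tested genes in chromosomal order, with a cross bar for the mean and a bar for the SD of each odour group. Bpifb5, Bpifb9a and Bpifb9b go from below 0 without odour to above 0 in all odour pools, and Bpifb3 goes from near 0 to about -1.

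With all pools, Bpifb3 was the only member that edgeR called lower in pulldown/input ratio in all 3 odours. It was at 1547, 1581, 1625, 1475 and 1462 CPM in the no-odour pulldowns. With NCD it was at 603 to 762 CPM (median 614), with Bacon at 969, 601, 603, 811 and 659 CPM, and with HFD at 563, 536, 554, 636 and 641 CPM. All 16 odour pulldowns were below the lowest no-odour pulldown. The log2 ratio was 0.11, 0.16, 0.12, -0.01 and -0.06 without odour, and its means were -1.09 ± 0.19 with NCD, -0.85 ± 0.31 with Bacon and -1.12 ± 0.09 with HFD. The fitted change was -1.01 ± 0.11 with NCD (adjusted p = 1.92e-06), -0.69 ± 0.12 with Bacon (adjusted p = 0.000230) and -1.06 ± 0.12 with HFD (adjusted p = 1.48e-06). Its rank in the pulldown went from 21 to 93, 73 and 108. With Bacon the call was lost when Bacon pool 2 (-0.65, adjusted p = 0.00134), 3 (-0.67, 0.00108) or 5 (-0.63, 0.00121) or no-odour pool 2 (-0.64, 0.00131) or 3 (-0.63, 0.00124) was left out, and when only the 2 groups compared were fitted (-0.67, adjusted p = 0.00731). Without the Bacon pool 1 the change with Bacon was -0.80 (adjusted p = 4.48e-06).

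Bpifb6, the gene just before Bpifb3, was at 161, 169, 165, 146 and 183 CPM in the no-odour pulldowns. It was at 90.9 to 133 CPM with NCD, at 174, 90.6, 88.5, 123 and 101 CPM with Bacon and at 90.5 to 98.4 CPM with HFD. Its ratio lay below all no-odour pools in every NCD and HFD pool, while the Bacon pool 1 overlapped with them. The fitted change was -0.73 ± 0.13 with NCD (adjusted p = 0.00118), -0.53 ± 0.14 with Bacon (adjusted p = 0.00648) and -0.68 ± 0.14 with HFD (adjusted p = 0.00195), which missed the threshold in all 3. Without the Bacon pool 1 all 3 passed it, at -0.73 (adjusted p = 1.81e-05), -0.69 (3.3e-05) and -0.68 (6.15e-05). The NCD change also passed without no-odour pool 4 (-0.81, adjusted p = 0.000761) and without Bacon pool 3 (-0.73, adjusted p = 0.000705). It passed as well in the fit of only the groups compared (-0.74, adjusted p = 0.000409), and DESeq2 called it with NCD (adjusted p = 6.15e-06) and HFD (adjusted p = 6.69e-05).

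Bpifb4, the last gene of the first group, was at 356, 370.4, 397, 291 and 312 CPM in the no-odour pulldowns and at 218 to 247 CPM with NCD. With Bacon it was at 260.2, 221, 237, 342 and 243 CPM and with HFD at 203 to 269 CPM. Its log2 ratio was 0.07 ± 0.10 without odour and -0.52 ± 0.08, -0.34 ± 0.16 and -0.31 ± 0.14 with the 3 odours. In these CPM ratios all 16 odour pools were below all 5 no-odour pools. With TMM-scaled library sizes the ratio of Bacon pool 4 was above that of no-odour pool 6, so the groups overlapped. The change was smaller than that of Bpifb3, at -0.44 ± 0.08 (adjusted p = 0.00153), -0.18 ± 0.09 (adjusted p = 0.130) and -0.26 ± 0.09 (adjusted p = 0.0386), and missed the threshold. The NCD change passed it without the Bacon pool 1 (-0.44, adjusted p = 0.000784) and without the no-odour pools 4 and 6 (-0.53, adjusted p = 0.000837). With all pools it passed in DESeq2 (-0.45, adjusted p = 5.36e-06), without a filter on low counts (-0.47, adjusted p = 0.000728) and with the share of ribosomal RNA as a covariate (-0.47, adjusted p = 0.000628).

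Bpifa1 was at 1001, 1025, 1080, 919.9 and 1071 CPM in the no-odour pulldowns. It was at 579 to 814 CPM with NCD, at 1139, 543, 590.0, 666 and 629.5 CPM with Bacon and at 569 to 600.3 CPM with HFD. The HFD pulldowns were the most uniform, and the Bacon pulldown 1 was the highest of all 21. The log2 ratio was -0.84, -0.69, -0.76, -1.66 and -1.01 without odour, so the no-odour pool 4, with an input of 2906 CPM against 1650 to 2157 CPM in the other 4, overlapped with the NCD and Bacon pools. The fitted change was -0.53 ± 0.19 with NCD (adjusted p = 0.0652), -0.34 ± 0.20 with Bacon (adjusted p = 0.235) and -0.75 ± 0.19 with HFD (adjusted p = 0.0124). Without the no-odour pool 4 the HFD change was -0.94 and passed the threshold (adjusted p = 0.000735). Without the Bacon pool 1 the Bacon change was -0.54 (adjusted p = 0.0122).

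Bpifb1, the least abundant member tested (270 to 972 counts in a library), was at 14.4, 15.4, 15.8, 13.9 and 17.9 CPM in the no-odour pulldowns. It was at 8.57 to 12.4 CPM with NCD, 9.73 to 14.9 CPM with Bacon and 13.1 to 15.99 CPM with HFD, so that only the NCD pulldowns were all below the no-odour ones. The fitted change was -0.62 ± 0.14 with NCD (adjusted p = 0.00663), -0.35 ± 0.15 with Bacon (adjusted p = 0.0941) and -0.41 ± 0.15 with HFD (adjusted p = 0.0568). The NCD change passed the threshold without the no-odour pool 4 (-0.75, adjusted p = 0.000548) and without pools 4 and 6 (-0.83, adjusted p = 0.000909). The Bacon change was -0.46 without the Bacon pool 1 (adjusted p = 0.0160).

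**Figure D3:**
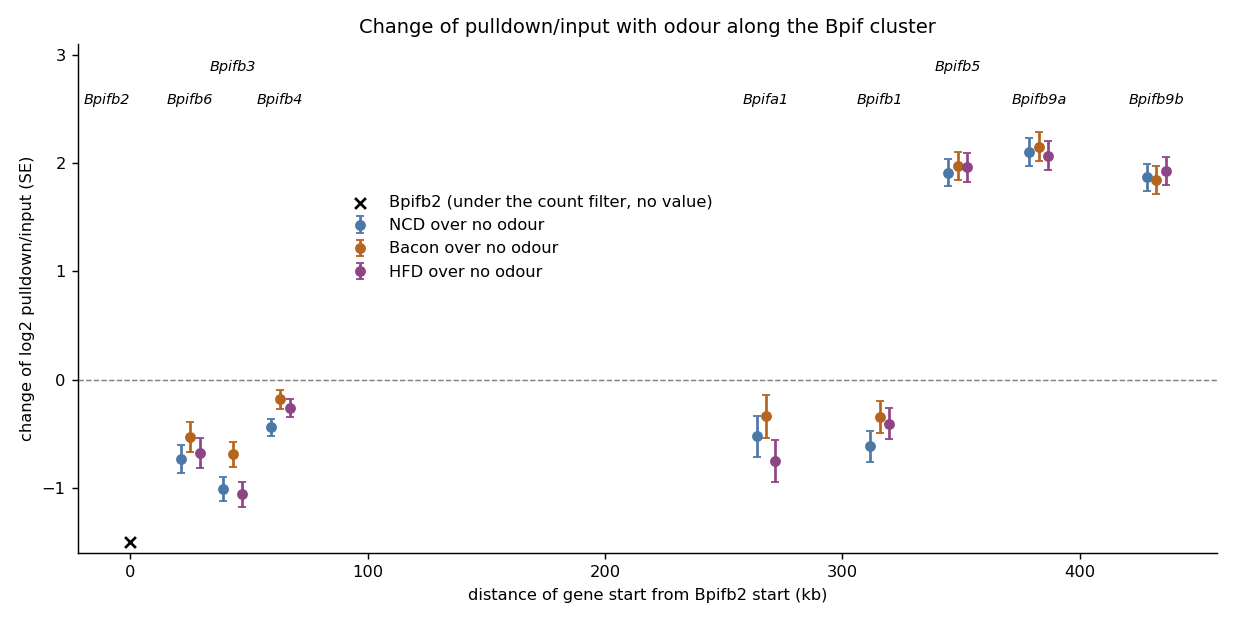
Change of the log2 pulldown/input ratio with each odour against no odour (edgeR, bars are SE), placed by the distance of each gene's start from the start of Bpifb2 in kb. The 5 genes from Bpifb6 to Bpifb1 lie below 0 and the last 3 genes lie near 2, while Bpifb2, marked by a cross at the lower edge, has no value.

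Along the chromosome the change switched sign once among the members tested. The 5 tested genes that start 25.3 to 316 kb after the start of Bpifb2 had fitted changes of -1.06 to -0.18, and the 3 that start 349 to 432 kb after it had fitted changes of 1.85 to 2.15. Bpifb1 and Bpifb5, on either side of the switch, start 32.9 kb apart. This order is a description, since the genes after the switch are those selected on their values.

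The next comparison asked whether the Bpif genes differed between the odours. No member was called in pulldown/input ratio between NCD, Bacon and HFD, where 0.00945% of all genes were called between Bacon and NCD, 0.0236% between HFD and NCD and 0.0378% between HFD and Bacon (edgeR). Over the 3 pairs of odours and the 5 members not selected on their values, 5 of 15 differences had an unadjusted p under 0.05, and DESeq2 called 0. The share of all genes at an unadjusted p under 0.05 was not counted. Counts at that level, here and in later paragraphs, are therefore a description from which nothing is read. The lowest adjusted p was 0.367, for Bpifb3 between HFD and Bacon, with a log2 difference of -0.37 (95% interval -0.61 to -0.13). Bpifb4 between Bacon and NCD differed by 0.26 (95% interval 0.09 to 0.43, adjusted p = 0.513). For Bpifb9b the differences were -0.02 ± 0.12 (SE) between Bacon and NCD, 0.06 ± 0.12 between HFD and NCD and 0.08 ± 0.13 between HFD and Bacon. For Bpifb9a they were 0.05 ± 0.13, -0.03 ± 0.13 and -0.08 ± 0.13, and for Bpifb5 0.06 ± 0.12, 0.05 ± 0.12 and -0.01 ± 0.13. The 95% intervals of these 9 differences lay within -0.36 to 0.34. These genes were selected on their ratios with odour, so the intervals are a description.

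The 9 members together took 0.658 to 0.823% of all counts in the no-odour pulldowns, 1.50 to 1.62% with NCD, 2.02 to 2.71% with Bacon and 1.98 to 2.11% with HFD. In contrast to the ratios, the pulldown CPM of Bpifb5, Bpifb9a and Bpifb9b differed between odours, and so did their input CPM. In the inputs Bpifb9b was at 7085 to 7542 CPM with NCD, 8494 to 10043 CPM with HFD and 11561 to 13893 CPM with Bacon, and these ranges did not overlap. Bpifb9a was at 2441 to 2582, 3053 to 3568 and 3908 to 4533 CPM in the same order, and Bpifb5 at 147 to 174 CPM, 179 to 228 CPM and 237 to 277 CPM. For all 3 genes the order was NCD below HFD below Bacon with no overlap of input CPM. With TMM-scaled library sizes, the HFD range of Bpifb5 (163 to 237) overlapped those of NCD (139 to 171) and Bacon (212 to 255). Bpifb9a overlapped between HFD (2784 to 3705) and Bacon (3438 to 4168), and Bpifb9b did not overlap. How many of all genes separate in this way was not counted. The fitted input difference between HFD and Bacon was -0.34 ± 0.16 for Bpifb9b, -0.25 ± 0.19 for Bpifb9a and -0.18 ± 0.16 for Bpifb5. The fitted input difference between Bacon and NCD was 0.71 ± 0.15 for Bpifb9b, 0.67 ± 0.18 for Bpifb9a and 0.59 ± 0.16 for Bpifb5 (log2, SE). None of the 8 members was called between odours in the inputs by edgeR, against 0.108% of 20451 genes between Bacon and NCD, 0.0538% between HFD and NCD and 0.0831% between HFD and Bacon. Of 15 differences of the 5 members not selected on values, 6 had an unadjusted p under 0.05. DESeq2 called 1 of all the differences, that of Bpifb9b between Bacon and NCD. Bpifb9b was selected on its values, and the share of all genes that DESeq2 called between odours is not given. Nothing is therefore read from this call.

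The input levels of these 3 genes without odour fell into 2 sets of pools. Bpifb9b was at 10281, 9170 and 10661 CPM in the no-odour pools 1, 2 and 3 and at 5117 and 4950 CPM in pools 4 and 6. Bpifb9a was at 4295, 4043 and 4483 CPM and then at 2117 and 1776 CPM, and Bpifb5 was at 210.2, 200.2 and 223 CPM and then at 125 and 104 CPM. The gland list showed the same split, with the values given above, while the input level of Bpifb3 did not (1420 to 1529 CPM over the 5 pools). In the pulldowns the split was much smaller, with Bpifb9b at 3209 to 3562 CPM in pools 1, 2 and 3 and 2714 and 3130 CPM in pools 4 and 6. The no-odour pools with the higher pulldown/input ratios of these genes were therefore the 2 with the lower input levels. Without pools 4 and 6 the fitted changes were larger, at 2.09, 2.10 and 2.15 for Bpifb9b, 2.31, 2.39 and 2.29 for Bpifb9a and 2.06, 2.16 and 2.12 for Bpifb5 with NCD, Bacon and HFD. The part of the gland content of these pools in the differences was not tested.

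**Figure D4:**
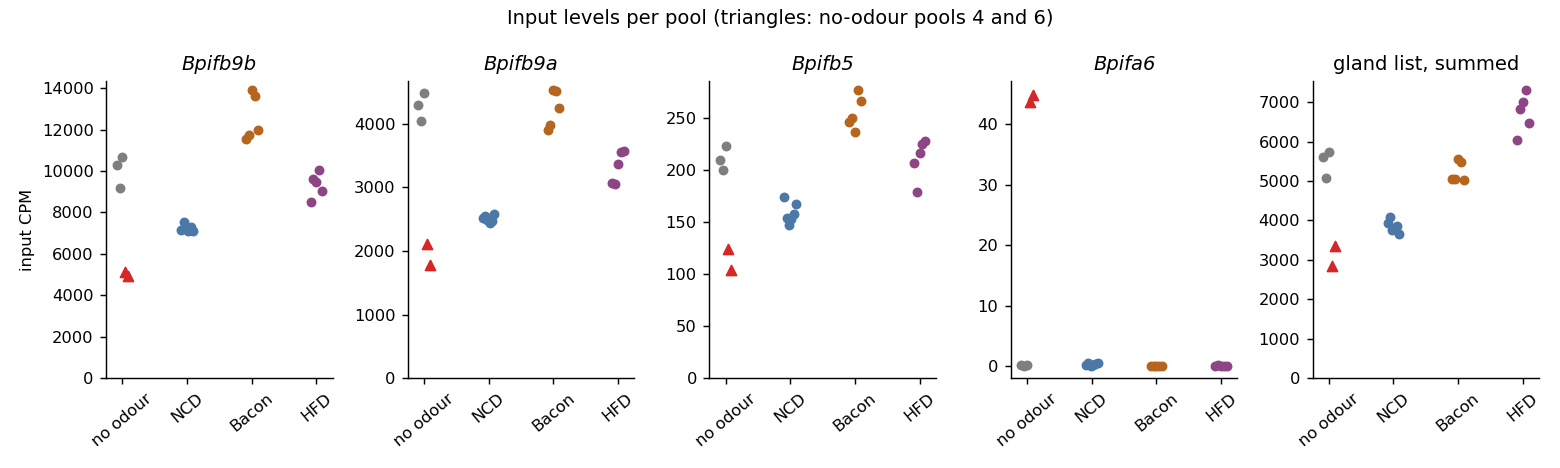
Input CPM of Bpifb9b, Bpifb9a, Bpifb5, Bpifa6 and the summed gland list in each of the 21 pools by odour group, with red triangles for the no-odour pools 4 and 6. The triangles are low in the first 3 panels and the last, and are the only points above 1 CPM in the Bpifa6 panel.

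Input levels with an odour were compared with those without odour in the 21 inputs alone. With NCD 0 of 8 members were called by edgeR (background 0.572% higher and 0.425% lower), with 3 of the 5 members not selected on values at an unadjusted p under 0.05 and 0 called by DESeq2. With Bacon Bpifb3 was called lower, at -0.50 ± 0.09 (adjusted p = 0.000182), against a background of 5.41% higher and 8.34% lower. With HFD 0 were called (background 0.636% higher and 0.328% lower), again with 3 of 5 at an unadjusted p under 0.05, and DESeq2 called 3. Over all genes in the inputs DESeq2 called 1262, 4320 and 1198 with NCD, Bacon and HFD, where edgeR called 204, 2812 and 197. Bpifb3 was at -0.32 ± 0.09 with NCD (adjusted p = 0.0107) and -0.43 ± 0.09 with HFD (adjusted p = 0.00284). Bpifb4 was at -0.22 ± 0.08, -0.33 ± 0.09 and -0.43 ± 0.09 with NCD, Bacon and HFD (adjusted p = 0.0587, 0.00398 and 0.00205). In input CPM, where ribosomal RNA counts enter the total, Bpifb6 was higher with NCD and Bacon than in all no-odour inputs, whereas its fitted changes were -0.00 ± 0.06 and -0.12 ± 0.06. Without the no-odour pools 4 and 6 the input changes of Bpifb9b were -0.72, -0.02 and -0.35, those of Bpifb9a -1.02, -0.35 and -0.60 and those of Bpifb5 -0.65, -0.07 and -0.24, against -0.38, 0.32 and -0.01, -0.65, 0.02 and -0.24, and -0.35, 0.24 and 0.06 with all pools. The direction for Bpifb9b, Bpifb9a and Bpifb5 with Bacon, and for Bpifb5 with HFD, thus turned with these 2 pools. Bpifb4 was called lower with Bacon without no-odour pool 4 (-0.40, adjusted p = 0.000404), and with HFD without no-odour pool 4 (-0.49, adjusted p = 0.000277) or 6 (-0.47, adjusted p = 0.00067). Bpifb3 was called lower with HFD without HFD pool 6 (-0.50, adjusted p = 0.00088).

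The other genes of the fold were 8 in number, of which Bpifa2, Bpifa6, Bpifc, Lbp and Pltp passed the filter on low counts. Bpi, Bpifa3 and Bpifa5 did not exceed 0.111 CPM. None of the 5 tested was called by edgeR in pulldown/input ratio with an odour, and 3, 4 and 2 of them had an unadjusted p under 0.05 with NCD, Bacon and HFD. DESeq2 called 0, 0 and 1. Lbp, the lipopolysaccharide-binding protein, had ratio changes of -0.43 ± 0.10 (adjusted p = 0.00611), -0.38 ± 0.10 (adjusted p = 0.00802) and -0.47 ± 0.10 (adjusted p = 0.00290) with NCD, Bacon and HFD. Pltp, which transfers phospholipids between lipoproteins, was at -0.28 ± 0.13, -0.36 ± 0.13 and -0.47 ± 0.13. Pltp overlaps Ctsa on the other strand and the library kit does not mark strand, so its value is uncertain. Bpifa6 had counts almost only in the no-odour pools 4 and 6, at 27.0 and 34.7 CPM in their pulldowns, and its changes of -0.01 to -0.56 had errors of 0.22 to 1.10.

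The gland list was chosen with earlier results of these data known, so its counts are a description. Of 15 tested, 9 were called higher in pulldown/input ratio with NCD, 8 with Bacon and 7 with HFD, where 0.359%, 2.47% and 0.699% of all genes were called higher. Obp1a, an odorant-binding protein of nasal glands, had changes of 3.02 ± 0.29, 2.62 ± 0.30 and 3.04 ± 0.30, and Obp2b had 2.48 ± 0.18, 2.21 ± 0.18 and 2.05 ± 0.18. The others called in all 3 odours were Obp2a, Lcn11, Mup4 and Mup5, which bind small lipophilic ligands. Muc5b, a gel-forming mucin of the glands, was at -0.13 ± 0.17, -0.71 ± 0.18 and -0.17 ± 0.18, and Sox9, a transcription factor of Bowman gland, at -0.35 ± 0.08, -0.39 ± 0.08 and -0.33 ± 0.08, so the list did not move as a whole. The summed gland list was at 4655 to 5238 CPM in the no-odour pulldowns, 7958 to 9283 with NCD, 6264 to 9585 with Bacon and 13968 to 14897 with HFD. By group means the order of Bacon and HFD was thus the reverse of that of Bpifb9b in the pulldown. The part of these genes' source cells in the change of the Bpif genes was not tested. Of the 6 tested markers of respiratory secretory cells, 6 of motile ciliated cells, 6 of sustentacular cells, 3 of horizontal basal cells, 5 of erythroid cells and 5 of neutrophils, 0 were called in ratio with any odour by edgeR or by DESeq2. At an unadjusted p under 0.05 the counts with NCD, Bacon and HFD were 0, 1 and 1 for respiratory secretory cells, 2, 4 and 3 for motile ciliated cells, 1, 0 and 0 for neutrophils and 0 for the other lists. Of the 9 markers of mature olfactory sensory neurons, edgeR called 0, 2 and 0 with NCD, Bacon and HFD, with 4, 6 and 5 at an unadjusted p under 0.05, and DESeq2 called 1, 2 and 1.

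Genes whose input level went up and down with each member across pools were named by the correlation of log2 CPM over the 21 inputs, taken as deviations from the odour group means, among 16344 genes. For Bpifb9a these were Lcn3 (r = 0.986), Mup4 (0.985) and Obp2a (0.983), and for Bpifb9b Gm6619 (0.976), Mup4 (0.974) and Obp2a (0.972). For Bpifb5 they were Gm14744 (0.990), 5430402E10Rik (0.977) and Obp2b (0.965). These values rest in part on the no-odour pools 4 and 6, since over the 16 odour inputs alone r was 0.840 for Bpifb9a with Lcn3, 0.680 for Bpifb9b with Gm6619 and 0.983 for Bpifb5 with Gm14744. The nearest genes to the members with a lower share were others. Bpifb3 was nearest to Emc10 (r = 0.942), Abcf3 and Slc22a20, Bpifb4 to Ltf (0.915), the gene of lactoferrin, and then Ets2 and Supt5, and Bpifb6 to Acsbg1 (0.876), Prpf19 and Col1a2. Bpifa1 was nearest to Tspan7 (0.966), Saraf and Psma2, and Bpifb1 to Gapdh (0.912), Anxa2 and Cyp2f2. Between members, r was 0.977 for Bpifb9a with Bpifb9b, 0.956 for Bpifb5 with Bpifb9a, 0.883 for Bpifa1 with Bpifb1 and -0.30 for Bpifa1 with Bpifb9a. Over the 16 odour inputs alone these were 0.795, 0.789, 0.858 and 0.913. Bpifb5 had r = 0.974 with Bpifb3 and 0.367 with Bpifb9b over those 16, against 0.457 and 0.891 over all 21, so the order of likeness between members turned with the no-odour pools. These correlations are descriptions over pools that share a total count and a normalization, and carry no test.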

How the data were processed

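The authors prepared unstranded libraries from amplified RNA, quantified genes with Salmon on GRCm38 through the nf-core rnaseq pipeline, per the labels and the methods, and deposited estimated counts per gene, not normalized and with replicates kept apart. Of these expected counts, 30.9% were not whole, since Salmon divides reads that match several genes. Of 44674 genes, 44118 had a symbol in GENCODE M21, and the other 556 stayed in the fits.

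Counts were rounded, filtered with filterByExpr (minimum count 10) and normalized by TMM (edgeR 4.0.16, limma 3.58.1, R 4.3.3). The robust quasi-likelihood fit of the 42 libraries held a term for each pool, since a pulldown and its input come from the same 4 epithelia, and pulldown-by-odour terms. A second fit held the 21 inputs with odour alone. Common biological variation was 12.0% and 11.7%. All p-values were two-sided and adjusted over all genes tested (Benjamini-Hochberg, threshold 0.001 as in the study). The fits were tested on simulated data, where they recovered the fold sizes and called no unchanged gene, but many genes changed by 1 on the log2 scale missed the threshold, so a missed threshold does not show that a gene did not change. Alternatives were DESeq2 1.42.0, its size factors, other filters on low counts, other terms for pool and replicate number, a threshold of 0.05, fits of only the groups compared and the omission of each pool. SE is the fold change divided by the root of F. CPM is scaled to all counts of a library, ribosomal RNA included.

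Members and lists (the 9 genes, 8 others of the fold, 8 marker lists and the 3 genes nearest to each member) were chosen with earlier results of these data known. Of 76 listed genes 74 were found. With group means subtracted, inputs sharing a number between odours correlated at -0.153 to 0.156 (median 0.0200, 27 pairs), and those with different numbers had a median of -0.00209 (138 pairs). Not every pair exceeded 0.1, so numbers were not taken as pairing pools across odours, though the measure is weak, since even pulldown and input of 1 pool had a median of 0.0142 (21 pairs). No 2 libraries of a group agreed within sampling noise (chi-square over its degrees of freedom was at least 3.33 in 90 comparisons). The labels do not say whether pools of a group were dissected on separate days, so p-values measure the spread between these pools.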

Additional observations from a re-analysis of the deposited data

Results flagged for a closer look

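Of 96 groups of 4 to 10 values, 5 held a value far from the others by Dixon's criterion, where chance alone gives about 4.8. Bpifa1 in the Bacon pulldown 1 was at 1139 CPM against 543 to 666 CPM in the other 4, and its log2 ratio of pulldown to input in that pool was -0.69 against -1.86 to -1.63. Bpifb1 in the NCD input 4 was at 21.8 CPM against 24.4 to 24.9 CPM. Bpifb4 in the Bacon input 4 was at 365 CPM against 313 to 327 CPM, and in the HFD input 2 at 246.5 CPM against 291 to 299.8 CPM.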

How the results depend on the processing

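Of 1632 values of 56 fold changes of members under the alternatives, 1557 kept direction and side of the threshold, 8 lost a call, 34 gained one and 33 changed sign. The calls of Bpifb5, Bpifb9a and Bpifb9b are a description. The ribosomal RNA covariate and the omission of no-odour pools 4 and 6 were added after the data were seen, and the cause of the changes below was not tested.

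Of the members, 7 instead of 4 were called in pulldown/input ratio with NCD and 7 with HFD at a threshold of 0.05. With Bacon that threshold added Bpifb6 (adjusted p = 0.00648). These counts include the 3 selected genes. The share of all genes at 0.05 is not given, so nothing is read from counts at 0.05, here or for the inputs below. Leaving out 1 pool gave 4 to 6, 3 to 5 and 4 to 5 calls with NCD, Bacon and HFD. A replicate block on the number shared between odours gave 5, 4 and 4 calls, adding Bpifb6 with NCD, and dropping the pool term gave 5, 4 and 5. Without odour 6 members were called lower, and 5 without pools 4 and 6 or in the fit of only the groups compared, both without Bpifb1. In the inputs the block gave 0, 1 and 0 calls, as without it. At a threshold of 0.05 the inputs gave 2, 3 and 3 calls with NCD, Bacon and HFD and 3 between odours, and without pools 4 and 6 they gave 3, 2 and 2 and 4 between odours. DESeq2 gave 3 with HFD and 1 between odours, the fit without a filter 1 with HFD, and the fit of only the groups compared 3 between odours. The shares of all genes for these counts between odours are not given, so nothing is read from them. Leaving out 1 pool gave 0 to 1, 1 to 2 and 0 to 1 input calls with NCD, Bacon and HFD.

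Fold changes that turned sign had no call as reported. Without pools 4 and 6, pulldown over input without odour was 0.093 for Bpifb3 and 0.028 for Bpifb4, and the input change was 0.082 for Bpifb1 with NCD, 0.038 for Bpifb1, -0.068 for Bpifb5, -0.35 for Bpifb9a and -0.018 for Bpifb9b with Bacon, and 0.028 for Bpifa1 and -0.24 for Bpifb5 with HFD. With the ribosomal RNA covariate Bpifb3 and Bpifb4 without odour were at 0.081 and 0.052. Bpifb4 was at 0.0023 without a pool term and 0.0028 with the replicate block, Bpifb9b in the HFD input at 0.00085 with the block, and Bpifb6 in the NCD input at 0.0025 without a filter. Leaving out 1 pool gave -0.056 to 0.034 for Bpifb3 and -0.060 to 0.028 for Bpifb4 without odour, -0.12 to 0.048 for Bpifb1 and -0.034 to 0.019 for Bpifb6 in the NCD input, -0.16 to 0.0042 for Bpifb1 and -0.16 to 0.14 for Bpifb9a in the Bacon input, and -0.091 to 0.17 for Bpifb5 and -0.17 to 0.10 for Bpifb9b in the HFD input.

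Over all genes, the count called in pulldown/input ratio ranged from 56 to 560 with NCD (111 as reported), from 26 to 1824 with Bacon (801) and from 37 to 868 with HFD (258), and in the inputs from 29 to 1262 (204), 758 to 4320 (2812) and 6 to 1198 (197). Without odour 4735 to 8267 genes were called between pulldown and input (7573). The highest counts came from DESeq2 and the lowest from the fit of only the groups compared, except the lowest with NCD in ratio, which came without no-odour pool 3. With the ribosomal RNA covariate 66 genes were called in ratio with Bacon, among them the same 4 members. Depth limited Bpifb2, which was not tested.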
